A study of Mus musculus with 14 samples.

Results

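The Dlx genes encode homeodomain transcription factors related to Distal-less of the fruit fly, and act in the development of the branchial arches, limbs, bone, skin, placenta and forebrain. In mammals they lie as pairs of convergently transcribed neighbours, whose members are known to share enhancers in and around the stretch between them. Several of them are known targets of bone morphogenetic protein (BMP) signaling in mesenchymal and bone-forming cells. In the BMP cascade, receptors phosphorylate SMAD1, SMAD5 and SMAD9 (pSMAD1/5/9), which enter the nucleus and bind DNA together with the common partner SMAD4. Acetylation of histone H3 at lysine 27 (H3K27ac) marks active promoters and enhancers. All 6 Dlx genes of the mouse, Dlx1 to Dlx6, were examined for CUT&Tag peaks of pSMAD1/5/9, SMAD4 and H3K27ac in adult muscle stem cells (MuSCs).

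CUT&Tag, in which an antibody directs the transposase Tn5 to chromatin, was performed on cultured MuSCs of 9-week-old female mice of the genotype C57BL/6N(Tg(Pax7-EGFP)Tajb). The cells had been sorted for the green fluorescence of this Pax7 reporter and then cultured further, so the population is limited to cells in which the transgene was on. The labels give the same genotype for both conditions. In both conditions they were kept without serum for 6 h with 200 ng/mL of BMPR1A-Fc, a soluble receptor that captures BMPs. They were then given for 1 h either 100 ng/mL BMP6 (BMP6-stimulated cells) or the acidic albumin vehicle (control cells). Each library came from 100000 cells fixed in 0.1% formaldehyde. Each of the 6 combinations of antibody and condition had 2 biological replicates, and the deposited data hold 1 consensus peak list for each combination. A further 2 libraries, for which the primary antibody had been omitted, are not analysed here. Read counts are not part of the lists, and the sequencing depth at a peak is therefore unknown.

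Peaks were taken from all 6 lists where they overlapped the canonical GENCODE transcript of a Dlx gene, extended by 20 kb on both sides, in GRCm39. Since the extended regions of neighbours overlap, the pairs were treated as 3 loci. In all, 35 of the 175565 listed peaks lay at these loci, of which 12 were at Dlx1/Dlx2, 23 at Dlx3/Dlx4 and 0 at Dlx5/Dlx6. The signal of a peak is a value of the peak caller without a stated unit, and is the total of both replicate values. Because the lists share no stated scale, signals were compared only by their rank within a list, with rank 1 the strongest. Peaks had to reach an irreproducible discovery rate (IDR) of at most 0.05 between the replicates, so a gene without a listed peak is one at which no peak passed that threshold. There is 1 list per condition, so no difference between conditions has a test. The spread is given by the ranks or values in both replicate columns, for those peaks where they are printed.

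H3K27ac checked the identity of the cells. All 9 muscle stem cell markers, among them Pax7, Myf5 and Myod1, had an H3K27ac peak within 2 kb of the transcription start site (TSS) in both conditions. Such a peak was listed at 55.5% of all protein-coding genes after BMP6 and at 53.4% in control cells. Of 13 markers of endothelial, blood, fibro-adipogenic, smooth muscle and Schwann cells, 4 had one with BMP6 and 5 without it. The strongest was at Dpt, a gene of fibro-adipogenic cells, with rank 2599 of 78050 and 3494 of 67790, while Pecam1, Cdh5, Ptprc, Pdgfra, Ly6a, Myh11, Rgs5 and Sox10 had none. Dpt ranked ahead of the muscle stem cell marker Sdc4 (27730 after BMP6, 21247 in control cells) and, in control cells, of Myod1 (5980). The other muscle stem cell markers ranked ahead of Dpt, and so did Myod1 after BMP6. The part of cells other than MuSCs in the peaks at the Dlx genes was not tested.

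**Figure D1:**
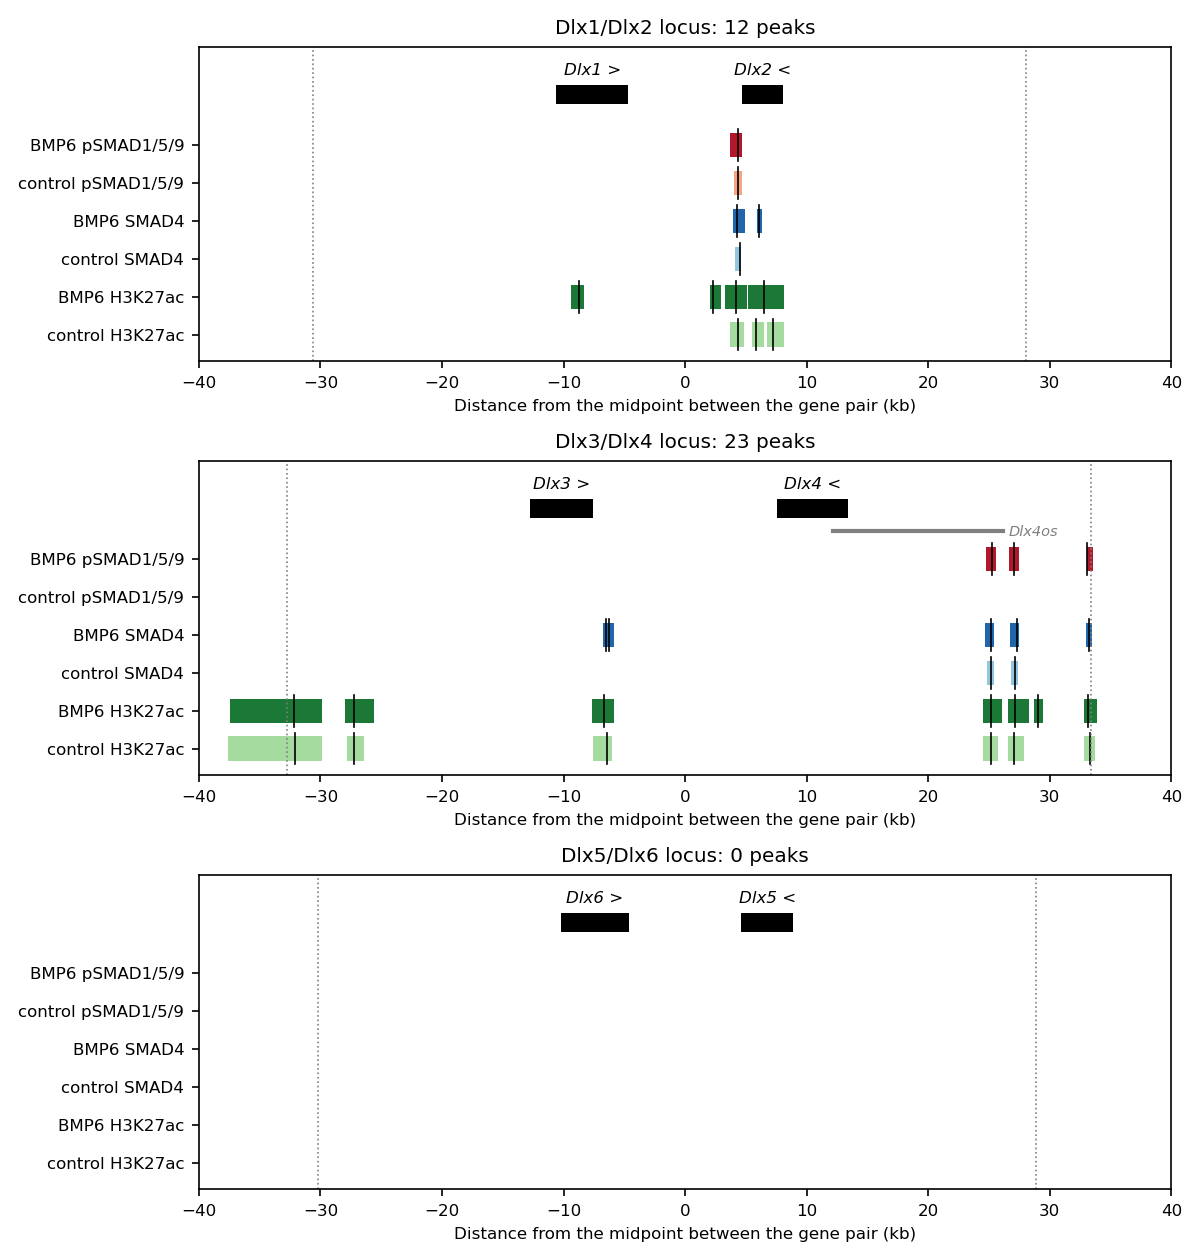
Peaks of the 6 lists at the 3 Dlx loci. The x axis is the distance in kb from the midpoint between the gene pair, coloured boxes are peaks with the summit as a black line, black boxes are the canonical transcripts with their direction, and dotted lines are the ends of the extended regions. SMAD peaks gather at the 3′ end of Dlx2, just past the 3′ end of Dlx3 and upstream of Dlx4, and the Dlx5/Dlx6 locus is empty.

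The sequences under the pSMAD1/5/9 summits of BMP6-stimulated cells are shown first, because the account of the loci turns on these 4 peaks. They are from GRCm39, plus strand, and all lie outside exons of the Dlx genes. For Dlx2, the 300 bases cover the summits of the SMAD peaks of both conditions, and for Dlx4, 200 bases are centred on each summit. Capitals mark the motifs searched on both strands. These were the SMAD palindrome GTCTAGAC, the BMP-responsive SMAD sites GGCGCC and GGAGCC, the SMAD core CAGAC, the E-boxes CAGCTG and CACCTG, the AP-1 site TGACTCA, and the homeodomain cores TAATTA and TAATTG. No motif of the list contains another.
Dlx2 3′ site, chr2:71373280-71373579: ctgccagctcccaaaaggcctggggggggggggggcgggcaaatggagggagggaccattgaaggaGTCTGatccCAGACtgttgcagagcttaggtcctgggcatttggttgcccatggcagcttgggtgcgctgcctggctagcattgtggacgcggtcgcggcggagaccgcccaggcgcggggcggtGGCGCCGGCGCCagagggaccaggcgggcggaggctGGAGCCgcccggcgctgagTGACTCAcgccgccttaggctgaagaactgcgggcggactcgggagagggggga
Dlx4 upstream peak 1, chr11:95048822-95049021: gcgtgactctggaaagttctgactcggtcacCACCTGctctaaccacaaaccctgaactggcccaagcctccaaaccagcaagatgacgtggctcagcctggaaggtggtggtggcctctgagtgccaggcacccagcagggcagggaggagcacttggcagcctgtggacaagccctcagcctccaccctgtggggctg
Dlx4 upstream peak 2, chr11:95050668-95050867: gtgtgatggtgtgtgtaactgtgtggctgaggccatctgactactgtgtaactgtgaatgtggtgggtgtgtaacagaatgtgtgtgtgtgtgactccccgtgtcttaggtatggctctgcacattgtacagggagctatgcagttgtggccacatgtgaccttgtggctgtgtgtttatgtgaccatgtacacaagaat
Dlx4 upstream peak 3, chr11:95056672-95056871: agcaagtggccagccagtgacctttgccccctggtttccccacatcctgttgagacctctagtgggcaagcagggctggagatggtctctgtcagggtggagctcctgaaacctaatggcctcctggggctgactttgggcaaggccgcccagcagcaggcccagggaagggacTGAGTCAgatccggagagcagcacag

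At the Dlx1/Dlx2 locus on chromosome 2, a single site carried pSMAD1/5/9, SMAD4 and H3K27ac in both conditions, and its pSMAD1/5/9 peak after BMP6 was among the strongest of the list. Dlx1 (ENSMUSG00000041911.5, plus strand, 71358457 to 71364324) and Dlx2 (ENSMUSG00000023391.10, minus strand, 71373752 to 71377102) are known for their joint role in forebrain interneurons and the jaw. They point at each other across 9427 bp, and the site lies in this stretch, next to the last exon of Dlx2. The 6 peaks of the site, 1 from each list, had 471 bp in common, from 71373160 to 71373630, and this common stretch ended 122 bp from the 3′ end of Dlx2. In the sequence of the Dlx2 3′ site above, the core CAGAC occurred at positions 76 to 80, counted from 1 at the 5′ end, and on the other strand at 67 to 71. The BMP-responsive site GGCGCC followed at 192 to 197 and directly again at 198 to 203, GGAGCC at 228 to 233 and the AP-1 site at 247 to 253.

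The pSMAD1/5/9 peak of BMP6-stimulated cells at the Dlx2 site ran from 71372770 to 71373690, with its summit at 71373393, which is 359 bp beyond the 3′ end of Dlx2 and 3709 bp from its TSS. The values in the replicate columns were 49770 and 51241, and their sum of 101011 ranked 42 of 7339. By the columns alone it ranked 130 and 18. In control cells the peak ran from 71373081 to 71373680 with the summit at 71373430, and columns of 16344 and 13021 gave rank 524 of 949, or 510 and 537 by column. As a percent of the list, the columns put the peak in the top 1.77% and 0.245% after BMP6, against the top 53.7% and 56.6% in control cells. These percents depend on the length of each list, 7339 and 949 peaks. Set against the 949 peaks of the control list, the ranks after BMP6 came to 13.7% and 1.90%. Only 58 of the 6322 protein-coding genes with a pSMAD1/5/9 peak after BMP6 had a stronger one, against 757 of 1299 in control cells. The control peak was close to the threshold, with a −log10 IDR of 1.65, and at a stricter IDR of 0.01 no control pSMAD1/5/9 peak was left at any Dlx gene. Most of the control list was lost at that threshold, which 141 of its 949 peaks reached, against 3674 of 7339 after BMP6.

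Since the lists differ in length, the change was also read within pairs of overlapping peaks. For pSMAD1/5/9, 839 peaks listed after BMP6 overlapped 794 different peaks of control cells. Among these the Dlx2 site was at position 31 after BMP6 and at position 488 in control cells. Expressed as the percentile in its list, it stood at 99.4 after BMP6 and at 44.9 in control cells, a rise of 54.6 points, while the median over all pairs was a rise of 16.9 points. A rise at least as large was found in 11.2% of the pairs. Unlike the positions among the pairs, these percentiles are those of the whole lists and still depend on their lengths. Pairs with a high percentile in control cells had no room for such a rise, so the share of 11.2% is limited by the starting percentiles.

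SMAD4 was listed at the same place. In BMP6-stimulated cells the peak ran from 71372962 to 71373984, with the summit at 71373316, and covered 233 bp of the 3′ untranslated part of Dlx2 exon 3. Its columns of 41175 and 27696 summed to 68871, rank 109 of 12860, or 125 and 96 by column. The control peak, from 71373160 to 71373630 with the summit at 71373544, had columns of 16177 and 9526 and ranked 857 of 8577, or 880 and 993 by column. The peak stood in the top 9.99% of its list in control cells and in the top 0.848% after BMP6, or at 1.27% when its rank after BMP6 is set against the length of the control list. The rise of 9.14 percentile points stood beside a median of 4.46 points over all 5852 SMAD4 pairs, and 40.04% of the pairs rose at least as much. The control peak already stood at percentile 90.0, so a much larger rise was not possible, and this share cannot rate the change. Among the pairs the peak was at position 109 after BMP6 and at position 837 in control cells. The SMAD summits of both conditions at this site spanned 228 bp.

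**Figure D2:**
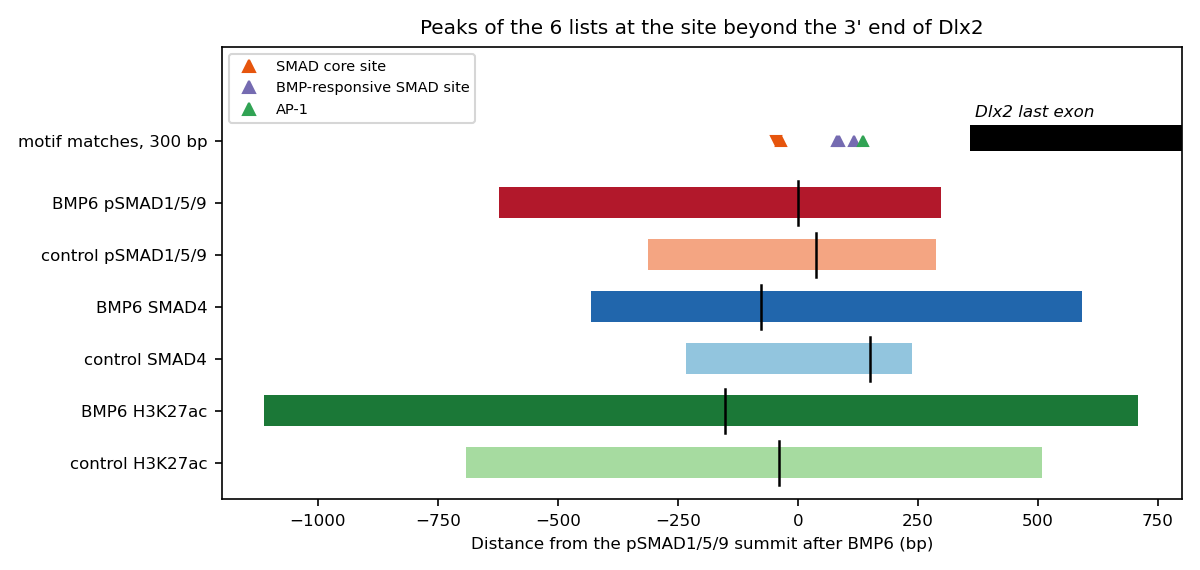
The 6 peaks at the site beyond the 3′ end of Dlx2. The x axis is the distance in bp from the pSMAD1/5/9 summit after BMP6, boxes are peaks, black lines their summits, and triangles are motif matches in the printed 300 bases, pointing up for the plus strand and down for the minus strand. All 6 peaks cover the motif matches, and the SMAD summits lie within 228 bp.

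**Figure D3:**
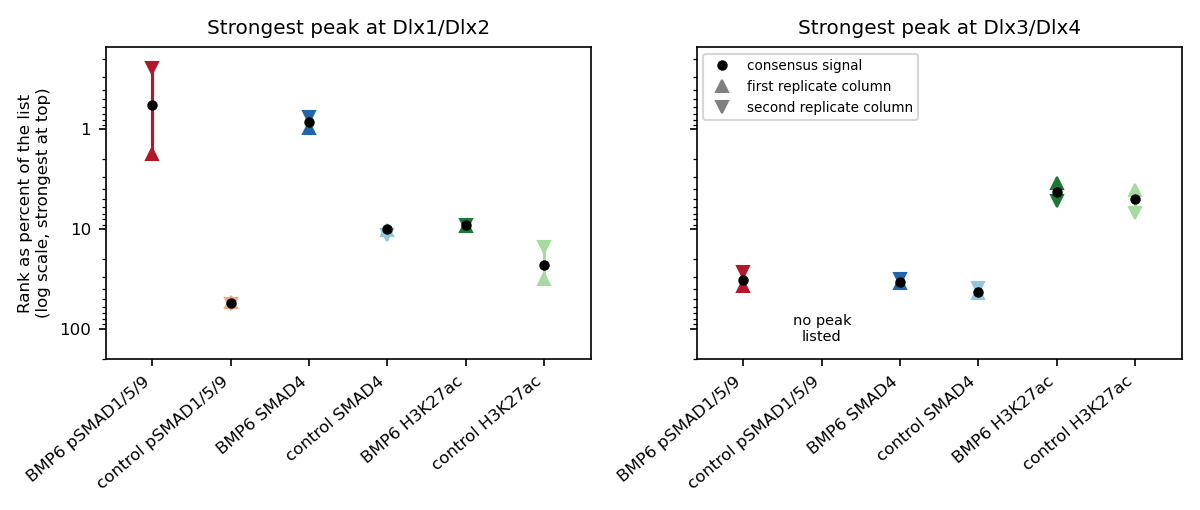
Rank of the strongest peak at the Dlx1/Dlx2 and Dlx3/Dlx4 loci as a percent of its list, on a log scale with the strongest at the top. Black points are ranks by the consensus signal, and triangles are ranks by each replicate column. At Dlx1/Dlx2 the pSMAD1/5/9 peak stood in the top 0.572% of 7339 peaks after BMP6 and in the top 55.2% of 949 peaks in control cells, and the percents depend on these lengths.

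Other peaks at Dlx1/Dlx2 were H3K27ac peaks and 1 weak SMAD4 peak. The weak SMAD4 peak, from 71374975 to 71375370, overlapped 294 coding bp of Dlx2 exon 3. It was listed only after BMP6, with columns of 3964 and 1714 and rank 10068 of 12860, and its −log10 IDR of 1.54 did not reach the stricter threshold. H3K27ac at the 3′ site ranked 7108 of 78050 after BMP6 (7189 and 7044 by column) and 15654 of 67790 in control cells (21607 and 10273), and a rise of its size or more was found in 20.0% of 56169 pairs. Over the Dlx2 gene itself, 1 H3K27ac peak from 71374241 to 71377180, rank 17669, was listed after BMP6, where the control list had separate peaks of ranks 51150 and 38164. The rise of 33.7 percentile points against the stronger of these was matched or passed in 2.96% of the pairs. Here 1 peak of 2940 bp is set against 1 of 1400 bp, and the part of this split in the rise was not tested. By column the peak ranked 13767 and 21143 after BMP6, and the stronger control peak 48031 and 30451.

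Dlx1 had little of its own. An H3K27ac peak over its first exon, from 71359681 to 71360730, was listed only after BMP6 and was weak, at rank 70470 of 78050, with columns of 459.9 and 490.9. This peak also overlapped Dlx1as, a long noncoding RNA gene on the opposite strand. A second weak H3K27ac peak seen only after BMP6 lay from 71371091 to 71372000, at rank 59945. In all, H3K27ac peaks covered 6720 bp of the Dlx1/Dlx2 locus after BMP6 and 3600 bp in control cells. The edges of H3K27ac peaks fell on steps of 70 bp in the BMP6 list and 100 bp in the control list, and over the genome the peaks covered 157 Mb and 130 Mb in the same order. The part of these differences between the lists in the covered length at Dlx1/Dlx2 was not tested.

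At the Dlx3/Dlx4 locus on chromosome 11, BMP6 pSMAD1/5/9 peaks were listed only far upstream of Dlx4, at 3 sites. In control cells, H3K27ac was listed at all 3 of them and SMAD4 at 2. Dlx3 (ENSMUSG00000001510.10, plus strand, 95010937 to 95016122), a regulator of skin, tooth and placenta, and Dlx4 (ENSMUSG00000020871.10, minus strand, 95031273 to 95037089), known from the placenta, are 15150 bp apart. The first pSMAD1/5/9 peak, from 95048491 to 95049270, had its summit at 95048922, 11833 bp upstream of the Dlx4 TSS, and overlapped an exon of the long noncoding RNA gene Dlx4os. Its columns of 13547 and 12738 gave rank 2355 of 7339, or 2701 and 1989 by column. The second, from 95050333 to 95051190 with the summit at 95050768, had columns of 9497 and 12263 and rank 3141. The third, from 95056729 to 95057220 with the summit at 95056772, had columns of 5847 and 7096 and rank 5827. By column, the second ranked 4193 and 2093, and the third 6451 and 4534. These are peaks of middle to low rank, and the third had a −log10 IDR of 1.56. The nearest pSMAD1/5/9 peak of control cells lay 909 kb from Dlx3.

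The third peak marks the border of the extended region, which it crosses at 95057089. Beyond the borders, the closest peak of any list was an H3K27ac peak 13.3 kb before the Dlx3/Dlx4 region. The closest pSMAD1/5/9 peak outside, in BMP6-stimulated cells, was 77.3 kb after the Dlx1/Dlx2 region.

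SMAD4 accompanied each of the 3 upstream sites after BMP6, with ranks of 4306, 4509 and 8418 of 12860. The first ran from 95048357 to 95049075, with the summit at 95048902 and columns of 8548 and 4970. The second ran from 95050462 to 95051177, with the summit at 95051019 and columns of 7051 and 6007. The third ran from 95056699 to 95057160, with the summit at 95056887 and columns of 4208 and 2963. In control cells, SMAD4 was listed at the first site at rank 3642 of 8577, with columns of 6610 and 4601, and at the second at rank 3922, with columns of 5595 and 5037. Between conditions these rose by 8.97 and 10.7 percentile points, and 40.4% and 37.5% of the SMAD4 pairs rose at least as much. The SMAD4 peak of the third site was thus listed only after BMP6.

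Downstream of Dlx3, SMAD4 was listed after BMP6 without pSMAD1/5/9. One peak, from 95016934 to 95017329, had its summit 1043 bp beyond the 3′ end of Dlx3 and rank 11609, and its neighbour, from 95017357 to 95017824, had its summit 1332 bp beyond the end and rank 6930. Both overlapped an H3K27ac peak that ranked 15367 of 78050 after BMP6 and 23078 of 67790 in control cells. Neither the pSMAD1/5/9 lists nor the control SMAD4 list had a peak there. The peak of rank 11609 of 12860 (12125 and 9753 by column) had a −log10 IDR of 1.42 and did not reach the stricter threshold. Its neighbour (6579 and 7108 by column) had 2.11 and did. Of the whole SMAD4 list after BMP6, only 42.7% overlapped pSMAD1/5/9, so SMAD4 without it was common.

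H3K27ac at the Dlx3/Dlx4 locus left out both promoters. The nearest H3K27ac peak was 5104 bp from the Dlx3 TSS and 11152 bp from the Dlx4 TSS after BMP6, and 5164 bp and 11112 bp in control cells. At the first upstream site of Dlx4 the H3K27ac peak ranked 24636 after BMP6 and 15275 in control cells, at the second 24413 and 19413, and at the third 33710 and 45339. In percentiles, the first fell by 9.03 points, the second fell by 2.64 points and the third rose by 23.7 points, so the direction was not shared. The strongest H3K27ac peak of the locus had its summit 19420 bp upstream of the Dlx3 TSS after BMP6, at rank 3334, and 19315 bp upstream in control cells, at rank 3372. It ran from 94986291 to 94993850 after BMP6, and in both conditions it crossed the border of the extended region at 94990937. The next one, at ranks 40059 and 31789, covered the TSS of the long noncoding RNA gene Gm72793, which lies upstream of Dlx3. H3K27ac peaks covered 11693 bp of the locus after BMP6 and 8953 bp in control cells.

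The Dlx5/Dlx6 locus on chromosome 6 had no peak in any list. Dlx5 (ENSMUSG00000029755.12, minus strand, 6877805 to 6882092) and Dlx6 (ENSMUSG00000029754.15, plus strand, 6862989 to 6868568), known for their roles in bone and jaw and with a gap of 9236 bp between them, had as their nearest H3K27ac peak one 73.5 kb from Dlx5 after BMP6 and 73.7 kb in control cells, for which the closest TSS was that of Sdhaf3. The nearest SMAD4 peak after BMP6 was 319 kb from Dlx6, and the nearest pSMAD1/5/9 peak was 962 kb from Dlx5. Across all 21603 protein-coding genes, 23.6% had no peak in any of the 6 lists.

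Counted by gene, 3 of 6 Dlx genes had a pSMAD1/5/9 peak after BMP6 (Dlx1, Dlx2 and Dlx4), where 29.3% of all protein-coding genes had one. In control cells the count was 2 (Dlx1 and Dlx2, which share the peak), beside 6.01% of all genes. For SMAD4 it was 4 after BMP6 (Dlx1 to Dlx4), beside 39.6%, and 3 in control cells (all of these but Dlx3), beside 31%. For H3K27ac it was 4 in both conditions, beside 75.4% after BMP6 and 74% in control cells. Dlx4 was the only Dlx gene with pSMAD1/5/9 peaks after BMP6 and none in control cells, a pattern of 23.7% of all genes. It was also the only one with at least 3 pSMAD1/5/9 peaks after BMP6, as had 4.99% of all genes, and with at least 5 SMAD4 peaks, as had 3.14%. These limits are the counts of Dlx4 itself and were chosen after they were seen, and at an IDR of 0.01 Dlx4 was left with 2 pSMAD1/5/9 and 3 SMAD4 peaks, below both. The extended regions of the Dlx genes were 43351 to 45868 bp long, against a median of 56252 bp over all genes. Neighbours share peaks, so these counts rest on 3 loci and not on 6 separate genes.

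Within 2 kb of a TSS, H3K27ac was listed at Dlx1 and Dlx2 after BMP6, where 55.5% of all genes had a peak, and at Dlx2 alone in control cells, where 53.4% had one. No Dlx gene had a pSMAD1/5/9 peak in this window in either condition, where 12.1% of all genes had one after BMP6 and 1.75% in control cells. The weak SMAD4 peak in Dlx2 exon 3 was the only SMAD4 peak there after BMP6, beside 18% of all genes, and in control cells, where 12.5% of all genes had one, no Dlx gene did.

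Of the 4 pSMAD1/5/9 peaks after BMP6, all 4 overlapped a SMAD4 peak of the same cells, as did 73.2% of the whole list. At the Dlx loci, 3 of the 4 overlapped a SMAD4 peak of control cells (57.2% of the list), 1 a pSMAD1/5/9 peak of control cells (11.4%) and all 4 a peak of H3K27ac listed without BMP6 (97.5%). Of the 7 SMAD4 peaks after BMP6, 4 overlapped pSMAD1/5/9 (42.7% of that list) and 3 SMAD4 of control cells (45.5%).

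**Figure D4:**
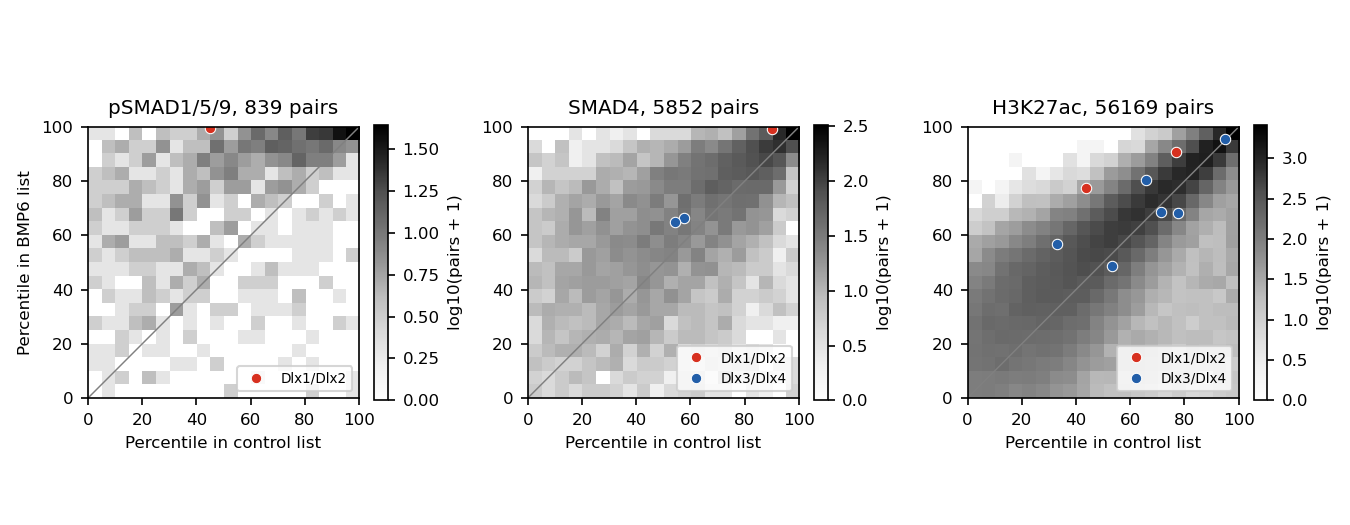
Percentile of overlapping peaks in the control list (x axis) and in the BMP6 list (y axis), for pSMAD1/5/9, SMAD4 and H3K27ac, where 100 is the strongest peak of a list. Grey shading is the number of pairs per bin as log10(pairs + 1), the line marks equal percentiles, and coloured points are pairs at the Dlx loci. The pSMAD1/5/9 pair of the Dlx2 site is at 44.9 and 99.4, and the points of Dlx3/Dlx4 lie on both sides of the line for H3K27ac.

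Motifs were counted in windows of 200 bp around these summits, and which sites hold a motif depends on this size. In windows of 400 bp, all 4 pSMAD1/5/9 peaks after BMP6 held CAGAC, as did 71.2% of the list. At the Dlx2 site the pSMAD1/5/9 window after BMP6 held CAGAC at 2 positions, 45 and 36 bp before the summit, and GGCGCC at 2 positions, 81 and 87 bp after it. Of all 7339 windows of the list, 48.6% held CAGAC and 7.75% held GGCGCC, and 2.85% held both. The CAGAC matches at this site faced outward with 4 bases between them, an arrangement found in 4 of the 7339 windows, and the side by side repeat of GGCGCC was found in 1, this window itself. Both arrangements were looked for after the sequence had been seen. The window had a GC content of 68.5%, where the median of the list was 56.0% and 12.5% of the windows had as much or more.

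Upstream of Dlx4, the first pSMAD1/5/9 window held the E-box CACCTG, as did 11.4% of the list. The second window, rich in TG repeats and with a GC content of 48.5%, held none of the motifs. The third held the AP-1 site, as did 15.5% of the list. None of the 4 pSMAD1/5/9 windows of 200 bp held GGAGCC (25.2% of the list) or CAGCTG (31.1%). Around the SMAD4 summits after BMP6, 5 of the 7 windows held CAGAC (53.4% of the list), 3 held CAGCTG (29.1%), 2 the AP-1 site (15.1%) and 1 GGAGCC (23.6%). The SMAD palindrome, in 0.518% of the pSMAD1/5/9 windows and 1.26% of the SMAD4 windows after BMP6, and the homeodomain cores TAATTA (1.68% and 1.74%) and TAATTG (3.11% and 3.27%) were in none of the windows at the Dlx loci. A match is a match of letters and not a mapped site.

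For comparison, 10 other homeobox genes, of families with members in BMP-responsive mesenchyme, were looked up in the same way (Msx1, Msx2, Msx3, Barx1, Barx2, Alx1, Alx4, Prrx1, Prrx2 and Pitx1). After BMP6, pSMAD1/5/9 was listed at 1 of them, Prrx2 (rank 2197), and in control cells at 0. SMAD4 was listed at 2 in either condition (Msx3 and Prrx2 after BMP6, Prrx1 and Prrx2 in control cells) and H3K27ac at 5, and the other 5 had no peak in any list (Alx1, Barx1, Msx1, Msx2 and Pitx1). Msx1 and Msx2, which like Dlx5 are known BMP targets in embryonic mesenchyme, thus shared the empty pattern of Dlx5 and Dlx6. Prrx2 had 4 pSMAD1/5/9 and 6 SMAD4 peaks after BMP6, where the Dlx genes had at most 3 and 5. These counts were not adjusted for the length of the extended regions, which differs between genes. The strongest H3K27ac peak of Prrx2 after BMP6 ranked 1383, ahead of the strongest at the Dlx loci (rank 3334).

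**Figure D5:**
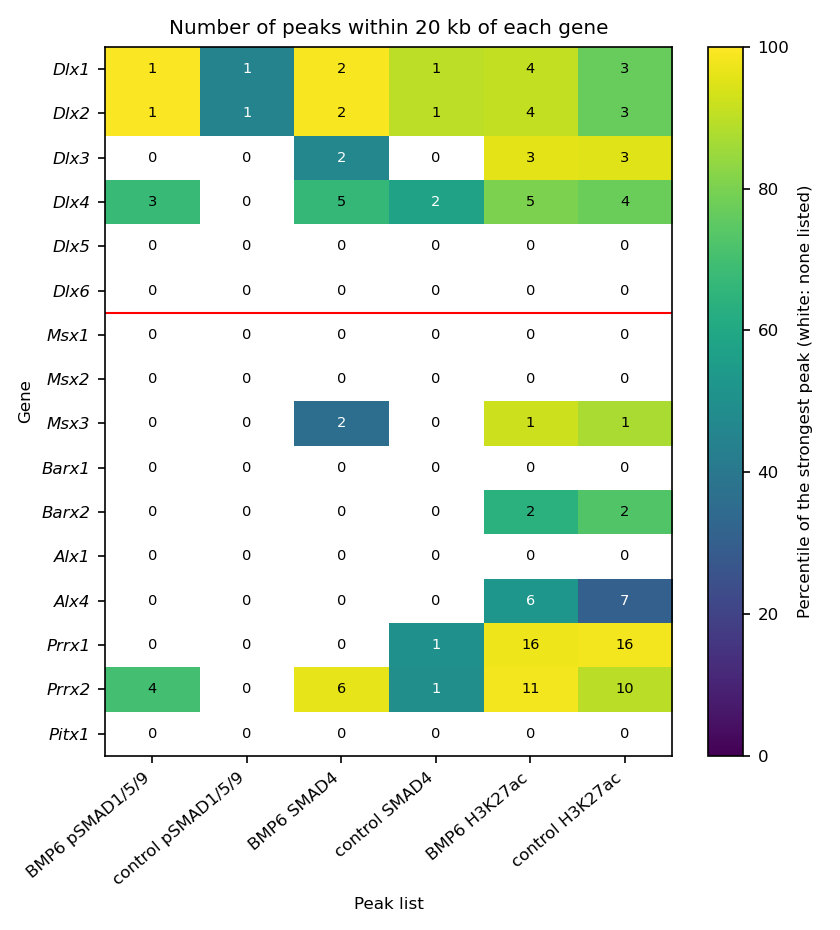
Number of peaks within 20 kb of each of the 6 Dlx genes (above the red line) and of 10 other homeobox genes, by list. The colour is the percentile of the strongest peak in its list, and white cells have no listed peak. Dlx5 and Dlx6 are empty in all 6 lists, as are 5 of the other 10 genes.

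The genes with the most similar pattern were found by the mean absolute difference, over the 6 lists, in the percentile of the strongest peak, with 0 where none was listed. Over genes more than 500 kb away, the closest to Dlx1 and Dlx2 were Col4a2 (4.08 percentile points), which encodes a collagen of basement membranes, Ntmt1 (5.80) and Thumpd3 (5.84). The closest to Dlx4 were Acsl1 (3.08), an enzyme that activates fatty acids, and the neighbours Pgpep1l and Fam169b, which share their peaks (3.25 each). The order of likeness rests on 6 values per gene.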

How the data were processed

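CUT&Tag libraries of MuSCs were grouped by antibody and treatment as the labels give them. Of the 14 libraries, 12 stand behind the 6 consensus lists. According to the methods, the authors drew the same number of reads for all libraries of an antibody, mapped them with Bowtie2 2.5.4 to GRCm39, filtered with SAMtools 1.21, converted with bedtools 2.31.1, called peaks per replicate with JAMM, and combined both replicates by IDR, ranked by signal, at 0.05. They used the filtered peaks of JAMM for the SMADs and all of its peaks for H3K27ac. Peaks that 1 replicate lacked are therefore not in the lists. The deposited signal is a score of the peak caller without a fixed range, the deposited scaled score is derived from the IDR, and the authors' lists also give the IDR as −log10 of its value. Other deposited columns used were positions and the consensus summit. The replicate columns carry no replicate number. The authors' differential binding results were not used here.

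Positions were made 1-based. Regions were canonical GENCODE M39 transcripts extended by 20 kb, for 21603 protein-coding genes on the autosomes and X, and an overlap of at least 1 bp counted. The percentile of a peak is the percent of the list at or below it in signal. Motifs were counted on both strands in 200 bp around the summit, in the GRCm39 genome. Python 3.11.15 was used with pysam 0.24.0, pandas 2.3.3, numpy 2.4.6 and, for figures, matplotlib 3.10.9. Overlap counting was tested on simulated data, where 600 of 600 planted regions among 2000 were recovered. The Dlx genes, the comparison genes, the motifs and the markers were chosen with earlier results of these data known. The text names all Dlx genes and 10 other homeobox genes. Of the noncoding genes that start in the Dlx regions, it names Dlx1as, Dlx4os and Gm72793, and others are not named. For each Dlx gene with a pSMAD1/5/9 peak, it names the 3 most similar genes. Some genes of the comparison and marker lists are not reported here. Alternatives covered the IDR threshold, the region, the transcripts, equal list lengths, merged peaks, ranks by each replicate column, by the scaled score and on autosomes, the overlap required and the motif window. No test was run, because each condition has 1 list. Precision is limited by the 2 replicates.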

Additional observations from a re-analysis of the deposited data

How the results depend on the processing

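No paired analysis was possible because no test was run and the replicate columns carry no number. Leaving aside ranks by a single replicate column, 122 of 178 values under alternatives stayed close and 56 moved further. Close means within 1 SD of the ranks in both replicate columns for a rank, which is a wide limit where the columns differ, and within 1.5 times for counts and shares. None of the alternatives placed a peak at Dlx5 or Dlx6.

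At an IDR of 0.01, the control pSMAD1/5/9 list had 0 peaks at 0 Dlx genes and the BMP6 SMAD4 list had 4 peaks, all 4 under H3K27ac, and the overlap of BMP6 with control pSMAD1/5/9 fell to 0. The share of all genes with a peak was then 17.4% and 0.921% for pSMAD1/5/9 and 25.4% and 16.3% for SMAD4, after BMP6 and in control cells. With 10 kb, in which no peak of Dlx4 was left, the counts of peaks were 1 for pSMAD1/5/9 after BMP6, 4 and 1 for SMAD4, and 5 and 4 for H3K27ac. With 50 kb, 9.82% of all genes had a control pSMAD1/5/9 peak. In the proximal region, from 1.5 kb before to 0.5 kb after the TSS, all SMAD lists had 0 peaks at 0 Dlx genes and both H3K27ac lists 1 peak at 1 gene, Dlx2, beside 11.3% and 1.57% of all genes for pSMAD1/5/9 and 16.7% and 11.5% for SMAD4. With only the strongest 949 pSMAD1/5/9 peaks after BMP6, 1 peak was left, that of the Dlx2 site, beside 5.35% of all genes.

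By 1 replicate column alone, the rank of the strongest peak at Dlx1/Dlx2 was 18 to 130 for pSMAD1/5/9 after BMP6 and 880 to 993 for control SMAD4. At Dlx3/Dlx4 the strongest SMAD4 peak was at the first upstream site by the first column and at the second site by the second column. These ranked 4485 and 3099 after BMP6, and 3717 and 2959 in control cells. The peak of the first site itself ranked 4485 and 4034 after BMP6, and 3717 and 3344 in control cells. On autosomes alone, H3K27ac at Dlx1/Dlx2 after BMP6 ranked 6461. The scaled score reaches its maximum of 1000 in 2543 pSMAD1/5/9, 4248 SMAD4 and 53008 H3K27ac peaks after BMP6, so ranks by it are those of ties. They were 1272, 2124.5 and 26504.5 at both Dlx1/Dlx2 and Dlx3/Dlx4 after BMP6. In control cells they were 365.5 for pSMAD1/5/9 and 1099.5 for SMAD4 at Dlx1/Dlx2, and 2823.5 for SMAD4 and 23636 for H3K27ac at Dlx3/Dlx4. With an overlap of at least 50% of both peaks, 2 of the pSMAD1/5/9 and 1 of the SMAD4 peaks after BMP6 overlapped H3K27ac of the same cells.

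The motif matches rose with the window by construction. Over all motifs, pSMAD1/5/9 after BMP6 had 6 in 200 bp, 2 in 100 bp, 16 in 400 bp and 27 in whole peaks, and in control cells 1 in 100 bp. SMAD4 had 11, 33 and 35 after BMP6 and 3, 14 and 18 in control cells in 100 bp, 400 bp and whole peaks.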
